A study of Mus musculus with 4 samples.

Results

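The interleukin-6 family cytokines and receptors were examined here as 6 genes, the ligands Il6, Osm and Lif and the receptor chains Il6ra, Il6st and Osmr. They were found by symbol: every probe set (a group of oligonucleotides on the array that reads 1 transcript) whose single gene symbol in the platform annotation is 1 of these names was taken. This gave 13 of the 34945 probe sets with 1 symbol, and 6 of 18193 genes. The cells were peritoneal macrophages of C57BL6/J mice, elicited with thioglycollate, an irritant that draws monocyte-derived cells into the peritoneal cavity, and kept as the cells that adhered in culture. WT mice were +/+:Setdb1 fl/fl and KO mice were LysM Cre/+:Setdb1 fl/fl, so that both genotypes carried the floxed alleles of Setdb1, a histone methyltransferase, and only KO mice carried the Cre. LysM Cre is driven from the lysozyme M gene, which neutrophils use as well as macrophages, so the deletion is one of myeloid cells and not of macrophages alone. Cells of each genotype received vehicle or lipid A, the part of lipopolysaccharide that activates the receptor TLR4, for 4 h. The sample labels give lipid A at 10 µg/ml and the series text gives 10 ng/ml, so the dose is uncertain here. Total RNA was hybridised to Affymetrix mouse arrays, with 1 array for each of the 4 conditions, and the sources used here do not say how many mice stood behind an array. With 1 array per condition there was no replicate check and no test was possible, and each value below describes these arrays.

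Cytokines of the interleukin-6 family signal through receptor complexes that share the chain gp130, which Il6st encodes. IL-6 first binds its own receptor chain, the product of Il6ra, on the cell surface or as a shed soluble form, whereas leukemia inhibitory factor and oncostatin M pair gp130 with the products of Lifr and Osmr. The complexes activate JAK kinases and the transcription factor STAT3, and SOCS3, itself a STAT3 target, binds gp130 and damps the signal. In macrophages, TLR4 stimulation switches on Il6 through NF-κB, C/EBP and AP-1 factors, and RNA-binding proteins such as Regnase-1 shorten the life of the transcript.

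Signals were linear values scaled to a trimmed mean of 500.004 on every array, and the median signal of an array, controls left out, was between 65.1 and 84.2. A signal under the median of its array was treated as near background. A gene was taken as detected in a comparison where the brighter signal was at least the median of its own array. A dimmer signal under its median was replaced by that median, so that the fold became a lower bound. Setdb1 itself gave 589 with vehicle and 521 with lipid A in WT, and 346 and 386 in KO, on its only probe set above the median, which may lie outside the deleted part and is no check of the genotype. All 8 macrophage markers reached the median on all 4 arrays, with summed signals from 159993 to 205812. Adgre1, the F4/80 antigen of macrophages, was at 10187 with vehicle and 9216 with lipid A in WT, and at 3726 and 6633 in KO. With vehicle its log2 difference between genotypes, -1.45, was the largest of the 8. The median of the 8 was -0.16 with vehicle, where 3 were higher in KO, and -0.33 with lipid A, where 1 was. The 6 B cell markers with a probe set summed to 424 and 423 in WT and to 4038 and 4065 in KO, vehicle first. The 10 fibroblast and mesothelium markers summed to 1838 and 1582 in WT and to 954 and 803 in KO in the same order, with Upk3b, Wt1 and Krt19 below the median on all arrays. Of the 7 detected between genotypes, Msln and Col1a1 were higher in KO with vehicle, and Msln alone with lipid A. Msln, a mesothelium marker, gave 6.70 and 45.2 in WT, both below the median, and 119 and 83.3 in KO. The 7 neutrophil markers summed to 1942 and 1975 in WT and to 1021 and 922 in KO, which rested on S100a8, at 1727 and 1721 in WT and 569 and 676 in KO. The other 6, a split made after the values were seen, summed to 215 and 254 in WT and to 451 and 246 in KO. These 6 were near background and went different ways. Camp reached the median in WT only, at 81.8 and 78.4 against 21.1 and 46.9 in KO. Ltf, Ngp and Elane reached it in KO only, Mpo with vehicle only and S100a9 on no array. Sums for the T and NK cell (111 to 498), mast cell (109 to 316), dendritic cell (173 to 450.4) and endothelium (199 to 394) markers were low on all arrays. T and NK cell markers summed to 111 and 286 in WT and to 244 and 498 in KO, vehicle first. Mast cell markers summed to 109 and 148 in WT and to 316 and 316 in KO. The dendritic cell and endothelium sums were higher in KO with vehicle and lower in KO with lipid A. Marker signals thus differed between the genotypes, and their part in the results below was not tested. In such bulk RNA, fewer cells of a type and less RNA per cell cannot be told apart.

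The promoters of Il6 and Lif are shown first, since the ligands were the members over 2-fold higher in KO under lipid A. RefSeq entries on GRCm38.p6 were found for 5 of the 6 genes, and the 250 bases before the start of transcription are printed for Il6 at chr5:30012864-30013113, plus strand, and for Lif at chr11:4257318-4257567, plus strand. Capitals mark matches to 5 motifs searched on both strands.
Il6: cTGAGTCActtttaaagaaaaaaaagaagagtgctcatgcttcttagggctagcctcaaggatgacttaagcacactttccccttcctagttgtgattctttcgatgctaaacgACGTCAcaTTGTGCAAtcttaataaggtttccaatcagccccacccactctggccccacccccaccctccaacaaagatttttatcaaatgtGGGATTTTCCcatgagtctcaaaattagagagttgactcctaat
Lif: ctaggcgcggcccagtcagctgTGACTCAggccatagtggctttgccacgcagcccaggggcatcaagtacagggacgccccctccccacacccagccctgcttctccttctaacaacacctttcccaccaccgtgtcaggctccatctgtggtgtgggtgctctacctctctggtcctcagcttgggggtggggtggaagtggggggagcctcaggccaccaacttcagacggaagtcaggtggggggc
The Il6 window held a κB match (GGGANTTNCC) from base -44 to -35 counted from the start, a C/EBP match (TTGCNNAA) from -128 to -121, an ATF/CREB match (TGACGT) from -136 to -131 and an AP-1 match (TGANTCA) from -249 to -243, with no overlap between them. The Lif window held 1 match, to the AP-1 letters from -228 to -222. No match to the STAT letters (TTCNNNGAA) was found in either window, and the windows of Il6ra, Il6st and Osmr held none of the 5 motifs. Among 32851 mouse promoter windows of the same length, the κB letters occurred in 0.98%, C/EBP in 9.56%, ATF/CREB in 6.47%, AP-1 in 6.75% and STAT in 7.02%. A match describes the letters and is not evidence of binding.

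Il6, the cytokine that names the family and drives the acute-phase response, had the widest range of the 6 genes. Its only probe set, 1450297_at, gave signals of 2.18 with vehicle and 4203 with lipid A in WT, and of 108 and 28480.4 in KO. Both lipid A arrays were thus far above both vehicle arrays, and KO lipid A was the brightest. The WT vehicle signal lay below the median of its array, so the WT response is a bound, at least 64.5-fold higher with lipid A. In KO the response was measured at 263-fold, from a vehicle signal only slightly above the array median. Il6 ranked 7 from the highest in each of these comparisons, among 12129 genes detected in WT and 12293 in KO. Under lipid A the Il6 signal was 6.78-fold higher in KO than in WT, a log2 difference of 2.76, which placed it 26 of 12335 genes. Under vehicle it was at least 1.66-fold higher in KO, with only the KO array above its median.

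Osm, which encodes oncostatin M, a cytokine made by activated macrophages and other leukocytes, followed the same order of arrays in a narrower range. Its single probe set, 1438767_at, gave 129.8 with vehicle and 267 with lipid A in WT, and 179 and 1191 in KO. All 4 signals were above the array medians and the KO lipid A array stood apart from the other 3. Lipid A was accompanied by a 2.06-fold higher signal in WT and by a 6.65-fold higher signal in KO. The KO signal was 4.45-fold above WT under lipid A (log2 difference 2.16, rank 68) and 1.38-fold above it under vehicle (0.46). The WT fold of 2.06 lies at the 2-fold threshold and the SD between probe sets of 1 gene, the only technical spread these arrays offer, was 0.39 on the log2 scale in that comparison. With the arrays centred on their medians the WT log2 difference of Osm went from 1.04 to 0.84, below 2-fold.

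Lif, which encodes leukemia inhibitory factor, was under or only slightly above the array median on every array except KO lipid A. The brighter probe set, 1421207_at, gave 78.2 with vehicle and 87.6 with lipid A in WT, and 58.7 and 451 in KO. The other, 1450160_at, gave 9.60 and 52.3 in WT and 5.15 and 138 in KO, vehicle first, and was above the array median on the last array alone. Lif differed by 1.12-fold between lipid A and vehicle in WT, within the spread between probe sets, and was at least 5.36-fold higher with lipid A in KO. Under lipid A, the KO signal was 5.15-fold above WT on the brighter probe set (log2 difference 2.37, rank 51) and at least 1.84-fold above it on the dimmer. Under vehicle no fold could be given, since the median of the KO array, which replaced the lower KO signal, exceeded the WT signal.

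**Figure D1:**
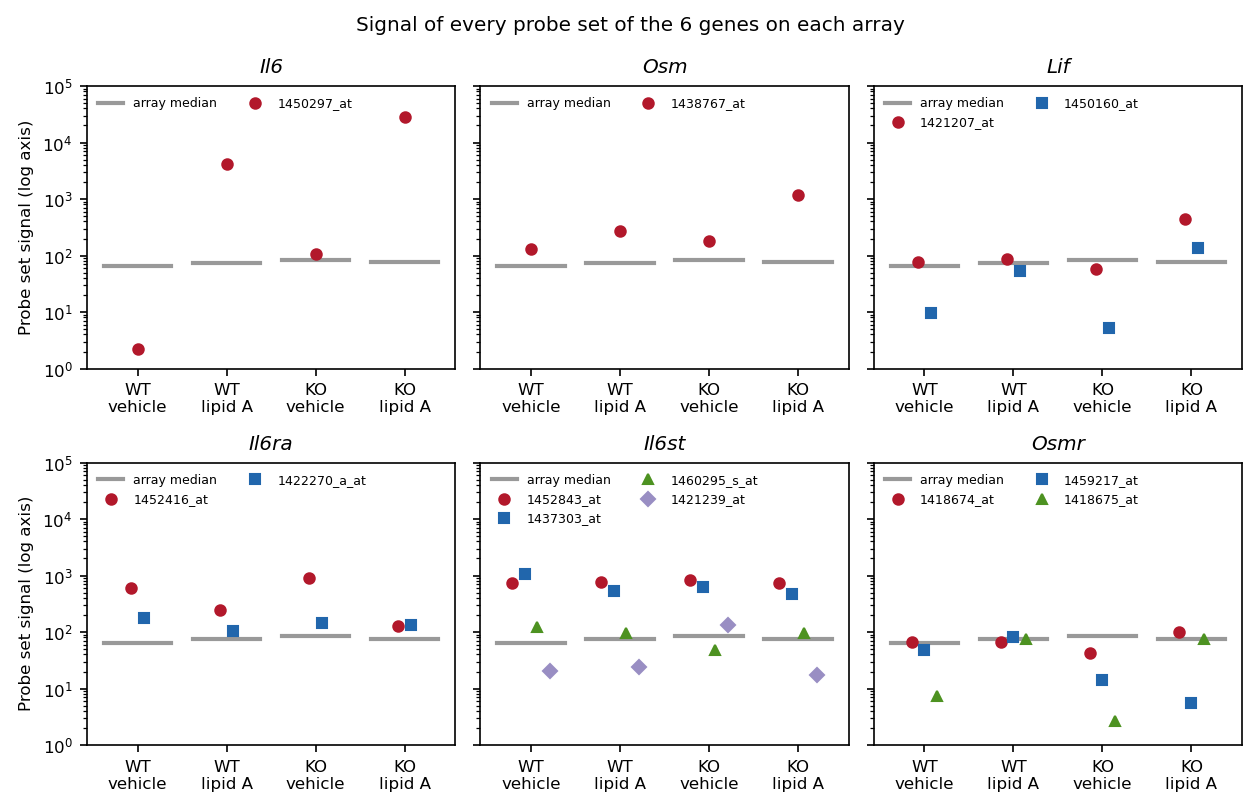
Signal of each probe set of the 6 genes on the 4 arrays, on a log axis, with 1 point per array and grey bars at the median signal of each array. Il6 reached 28480.4 and Lif 451 in KO lipid A, while the brightest Il6st probe set stayed between 722 and 832 on all arrays.

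Il6ra, the chain that binds IL-6 itself, had its lower signals where the ligands had their higher ones, on its brighter probe set. Probe set 1452416_at gave 613 with vehicle and 244 with lipid A in WT, and 899 and 128 in KO. Both lipid A arrays were below both vehicle arrays, and KO held the highest as well as the lowest signal. The signal was 2.51-fold lower with lipid A in WT and 7.04-fold lower in KO, where it ranked 28 from the lowest of all detected genes. The second probe set, 1422270_a_at, gave 177 and 103 in WT and 146 and 132 in KO, vehicle first. This was 1.72-fold lower with lipid A in WT but only 1.10-fold lower in KO, a difference between probe sets well over the SD of 0.46 for that comparison. Between genotypes under lipid A the probe sets went opposite ways, 1.91-fold lower in KO on the brighter and 1.28-fold higher on the other. Under vehicle they did so again, 1.47-fold higher and 1.22-fold lower in KO. A direction of Il6ra between genotypes therefore rests on the choice of probe set.

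Il6st, the shared signalling chain gp130, was the steadiest of the 6 genes on its brightest probe set. The signals of 1452843_at were 734 with vehicle and 766 with lipid A in WT, and 832 and 722 in KO. Across the 4 comparisons this probe set differed by between 1.04-fold and 1.15-fold, within the spread between probe sets. The second, 1437303_at, gave 1077 and 531 in WT and 634 and 470.004 in KO, again vehicle first, so that WT vehicle alone was high. On it, lipid A went with a 2.03-fold lower signal in WT and a 1.35-fold lower signal in KO, and KO vehicle was 1.70-fold below WT vehicle. Under lipid A the genotypes differed by 1.06-fold on the first and 1.13-fold on the second probe set, both lower in KO. The remaining probe sets were dim, with 1460295_s_at at 122 and 98.0 in WT and 47.7 and 94.4 in KO, and 1421239_at at 20.2 and 24.0 in WT and 135 and 17.3 in KO, the last above the median only with vehicle in KO.

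Osmr, the chain that pairs with gp130 for oncostatin M and is best known from stromal and epithelial cells, had little signal in these macrophages. Probe set 1418674_at gave 65.5 with vehicle and 66.7 with lipid A in WT, and 41.7 and 101 in KO. It exceeded the array median in KO lipid A, where it was at least 1.35-fold above WT lipid A, and by less than 1 unit of signal in WT vehicle. Of the other probe sets, 1459217_at gave 48.3 and 80.4 in WT and 14.1 and 5.57 in KO, and 1418675_at gave 7.29 and 75.2 in WT and 2.66 and 74.6 in KO, and each passed its array median in WT lipid A alone. The 3 probe sets did not share an order of arrays, and at these signals no level of Osmr could be ranked.

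Counted by the brightest probe set, Il6 and Osm were over 2-fold higher and Il6ra was over 2-fold lower with lipid A in WT, 2 and 1 of the 5 genes detected. Of all genes detected in that comparison, 5.71% were over 2-fold higher and 3.78% over 2-fold lower. In KO, Il6, Osm and Lif were higher and Il6ra was lower, 3 and 1 of 6, where 5.65% of all genes were higher and 9.79% lower. Between genotypes under lipid A, the same 3 ligands were over 2-fold higher in KO and no member was over 2-fold lower, against 4.28% and 3.92% of all genes. All 3 were also over 3-fold higher, a threshold that 1.28% of all genes passed. The study used 3-fold between genotypes as a second step, on genes whose WT signal had already risen more than 2-fold after lipid A. Lif, at 1.12-fold in WT, did not pass that first step here, and Osm passed it narrowly, at 2.06-fold. Under vehicle none of the 6 genes was called over 2-fold between KO and WT, where 5.22% of all genes were higher and 2.06% lower. The Il6 value there was a lower bound of 1.66-fold, which does not show a difference under 2-fold, and Lif and Osmr had no fold. Over the detected members the median log2 difference was 0.16 for the lipid A response in WT and 1.35 in KO, 1.30 between genotypes with lipid A, and 0.32 between genotypes with vehicle, the last with Lif and Osmr, which had no fold, set to 0. The medians over all detected genes were -0.04, -0.19, -0.01 and 0.10. Under median centring of the arrays the vehicle split turned to 1.99% of all genes higher and 5.71% lower in KO, and with quantile normalization to 2.72% and 2.65%, and none of the 6 genes passed 2-fold under either. For the lipid A response, median centring gave 3.99% higher and 6.88% lower in WT and 7.27% higher and 7.01% lower in KO. These comparisons share arrays in pairs and are not independent of each other.

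**Figure D2:**
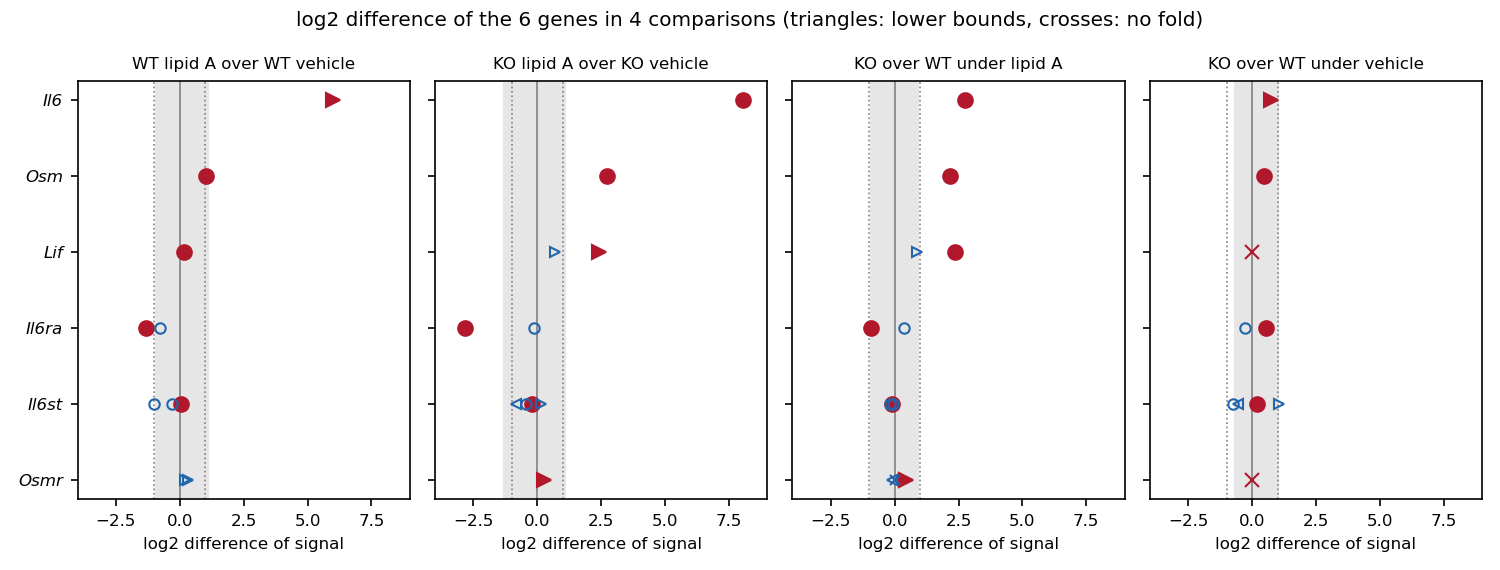
Log2 difference of signal of each detected probe set in the 4 comparisons, filled for the brightest probe set of a gene and open for the others, with triangles for lower bounds, crosses where no fold could be given, grey bands for the 5th to 95th percentile of all genes and dotted lines at 2-fold. Il6, Osm and Lif lie at 2.76, 2.16 and 2.37 in the panel of KO over WT under lipid A, beyond its band, and between 0 and 0.73 in the vehicle panel.

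The lipid A response itself was set against the genotype as the KO log2 difference minus the WT log2 difference. For Osm, measured on all 4 arrays, the KO response was larger by 1.69. For Lif it was larger by at least 2.26 on the brighter probe set, while the dimmer reached its array median in KO lipid A alone and gives no such difference. For Il6ra, lower with lipid A in both genotypes, the difference was -1.49 on the brighter probe set and 0.64 on the other. For Il6st the difference was -0.27 on the brightest and 0.59 on the second probe set. Both lie within 0.60, the spread for response differences combined from 0.39 in WT and 0.46 in KO. For Il6 the difference has no settled sign: it was 2.03 with the WT vehicle signal raised to the array median and -2.87 with that signal of 2.18 taken as measured. What the arrays give for Il6 is the level under lipid A, which was higher in KO.

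**Figure D3:**
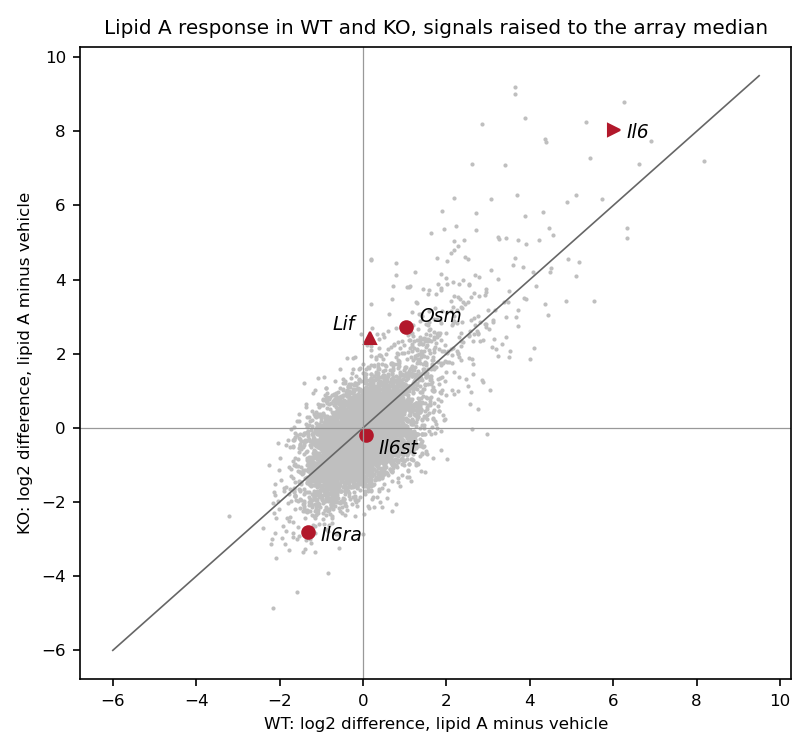
Log2 difference between lipid A and vehicle in WT on the horizontal axis and in KO on the vertical axis for 13567 genes (grey points), signals raised to the array median, with equal responses on the diagonal. Osm, at 1.04 in WT and 2.73 in KO, and Lif, at 0.16 and at least 2.42, lie above the diagonal. The Il6 triangle points along the axis on which its value of 6.01 is a lower bound, and Osmr is not marked because it lay near background.

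The genes whose pattern over the 4 arrays was nearest to that of each member were found by the distance between centred log2 signals, among 13566 genes that reached the median on at least 1 array. Nearest to Il6 were Cxcl1, a neutrophil-attracting chemokine, at a distance of 1.11, Ptgs2, the inducible cyclooxygenase, at 1.33, and Ccl2, a monocyte-attracting chemokine, at 1.52. These distances use the WT vehicle signal of Il6 raised to the array median. With vehicle, Cxcl1, Ptgs2 and Ccl2 were at 222, 178 and 137 in WT and lower in KO, at 137, 107 and 88.3, whereas Il6 was higher in KO. Nearest to Osm were Ptx3, a secreted pattern recognition molecule, Hbegf, a growth factor of the EGF family, and Ccl9, a chemokine, at 0.30 to 0.40. Ptx3 was below the median on both vehicle arrays, at 25.5 in WT and 2.56 in KO, so its nearness rests in part on the raised signals. Hbegf, for example, gave 125 with vehicle and 309.8 with lipid A in WT, and 234 and 1495 in KO. Lif was nearest to Spry1, Ccl22 and Il23a, all of them between 392 and 491 in KO lipid A and at 93.7 or below on the other arrays, at 0.19 to 0.21. Ccl22 and Il23a reached the median in KO lipid A alone, so their nearness also rests on raised signals. Il6ra was nearest to Arhgap25, Knop1 and Pparg at 0.14 to 0.18. Pparg, a nuclear receptor of lipid metabolism, gave 1569.5 with vehicle and 545 with lipid A in WT, and 2085 and 279 in KO, the same order of arrays as Il6ra. Il6st had near neighbours at 0.015 to 0.023, Acap2, Eif4h and Rnf7, as flat as itself. The neighbours of Osmr, among them Foxp3 and Edn2, reached the median only in KO lipid A at about 101 and shared no more than that.

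Of the other ligands of the family, 5 of 9 listed genes had a probe set with 1 symbol. Ebi3, the shared subunit of interleukin-27 and interleukin-35, gave 569 with vehicle and 989.7 with lipid A in WT, and 397 and 575 in KO, a log2 difference of -0.78 between genotypes with lipid A. Clcf1 was 1 of 3 detected ligands over 2-fold higher in KO with lipid A, with a bound of 1.16 on its brightest probe set, while another of its probe sets gave -0.39. Ctf1, cardiotrophin, was at -0.53, and Il11 was below the median on all arrays. Cntf and Il27 have no probe set with 1 symbol. Of the other receptor chains, Lifr, the partner of gp130 for leukemia inhibitory factor, was below the median on all arrays on its brightest probe set. Il27ra gave 202 and 209.9 in WT and 70.3 and 219 in KO, vehicle first, so that KO vehicle alone was low. Adam17, the protease that sheds the IL-6 receptor, was well above the median on every array, between 6173 and 11964, and differed by -0.27 between the genotypes with lipid A. Its relative Adam10, which can also shed that receptor, was at -0.65, though 1 of its dimmer probe sets gave 0.46. Of the 4 proteases and their helpers, 1 was over 2-fold higher in KO with lipid A and none lower, where 4.28% and 3.92% of all genes were. Rhbdf1, which helps Adam17 reach the cell surface, was at 81.2 in WT and 526 in KO with lipid A, a difference of 2.69, and at 89.5 and 290.4 with vehicle.

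Of 9 JAK-STAT signal transducers detected, 1 was over 2-fold higher in KO with lipid A and none over 2-fold lower, where 4.28% and 3.92% of all genes were, with a median log2 difference of 0.29 beside -0.01 over all genes, and under vehicle none passed in either direction. Stat3, the main transcription factor of the pathway, gave 1260.3 with vehicle and 1606 with lipid A in WT, and 1484 and 1595 in KO, and its other bright probe set was as flat. Jak1, the kinase most needed by gp130, lay between 3367 and 5166. Jak2 gave 1260.02 and 5411 in WT and 807 and 7153 in KO, vehicle first, so that both lipid A arrays were high. Stat5a was the gene that passed, at 458 and 1206 in WT and 459 and 3867 in KO, a log2 difference of 1.68 under lipid A, and its second probe set gave 2.75.

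Of 9 negative regulators of the pathway, 3 were over 2-fold higher in KO with lipid A, all of them SOCS family genes, and none was over 2-fold lower, beside the 4.28% and 3.92% of all genes given above. Socs3 gave 545 with vehicle and 2484 with lipid A in WT, and 195 and 14394.5 in KO. KO was thus lower than WT under vehicle, at a log2 difference of -1.48, and higher under lipid A, at 2.53, and all 3 probe sets of Socs3 had these directions. Cish, an inhibitor best known from STAT5 signalling, gave 60.5 and 143 in WT and 124 and 1772 in KO, a log2 difference of 3.63 under lipid A. Socs2 gave 93.0 and 135 in WT and 155 and 508 in KO, a difference of 1.91, while 1 of its dimmer probe sets gave -1.67. Pias3, an inhibitor of STAT3, was at -0.80. The median over the list was 0.23 under lipid A and 0.20 under vehicle.

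Genes that STAT3 is known to activate in other cells went both ways between the genotypes. Under lipid A, 5 of 17 were over 2-fold higher and 4 over 2-fold lower in KO, with a median of 0.68, beside 4.28% and 3.92% of all genes. Under vehicle 2 were higher and 3 lower, with a median of -0.09, beside 5.22% and 2.06%. Timp1, an inhibitor of matrix metalloproteinases, gave 166 with vehicle and 269 with lipid A in WT, and 156 and 1741 in KO, a difference of 2.70 under lipid A. The other 4 that were higher, named after their values were seen, were Il1rn, the interleukin-1 receptor antagonist, Icam1, Cebpd and Il4ra. Bcl6, a transcriptional repressor, was lower, at 1185 in WT and 204 in KO with lipid A, a difference of -2.54, and Fos, an AP-1 subunit, was at -1.69. Hp, which encodes the acute-phase protein haptoglobin, gave 1081 and 1543 in WT and 68.8 and 73.4 in KO, both of the latter below the array median, so that its log2 difference with lipid A was -4.35 or lower. Lcn2, also named after its values were seen, gave 786 and 983 in WT and 90.4 and 327 in KO, again vehicle first. Hp and Lcn2 are also abundant in neutrophils. Of the neutrophil markers S100a8 was lower in KO under both treatments. The other 6 were near background and went different ways, as given above. The part of neutrophils in these values was not tested.

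Of the factors known to act at the Il6 promoter, 5 of 13 detected were over 2-fold higher and 2 over 2-fold lower in KO with lipid A, with a median of 0.45, and 1 and 2 with vehicle, with a median of 0.00, against the same shares of all genes. That vehicle median is the value of Fosl1, which had no fold and was set to 0. Nfkbiz, which encodes the inducible IκBζ needed for Il6 transcription, gave 877 with vehicle and 7419 with lipid A in WT, and 211 and 15134 in KO. Its brightest probe set was lower in KO under vehicle, at -2.06, and higher under lipid A, at 1.03. Of its 3 probe sets, 1 was higher in KO under both treatments, at 0.26 and 0.69. Nfkb2, the precursor of the p52 subunit, was at 1.36 under lipid A, and Cebpd, a C/EBP factor, at 1.27, though its dimmer probe set gave 0.14. Cebpb, the C/EBP factor most tied to Il6, was bright on all arrays, between 15106 and 23931, and differed by 0.09 under lipid A. Fos was lower, as given above, and Crem, a CREB family factor, was at -1.32 on its brightest probe set, a size its other probe sets, at 0.61 or nearer to 0, did not share. Among RNA-binding regulators of Il6 mRNA, 2 of 8 were over 2-fold higher in KO with lipid A and 1 was lower, with a median of 0.67, and 1 was higher and 1 lower under vehicle, with a median of -0.18, again against those shares. Zfp36l1, which destabilises AU-rich transcripts, was at 260.3 in WT and 996 in KO with lipid A, a difference of 1.94, though its dimmer probe set gave 0.59. Zc3h12a, which encodes Regnase-1, was at 674 and 2292, a difference of 1.77, though its dimmer probe set gave -0.01. Arid5a, which protects Il6 mRNA from Regnase-1, was at 1059.55 and 499.6 on the same arrays, a difference of -1.08, and Zfp36, tristetraprolin, was at 0.84.

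The lipid A responses of the lists were counted in the same way, where 5.71% of all genes were over 2-fold higher and 3.78% lower in WT, and 5.65% higher and 9.79% lower in KO. Of the STAT3 target genes, 6 of 17 detected were over 2-fold higher and none lower with lipid A in WT, with a median of 0.70, and 11 of 16 were higher and 2 lower in KO, with a median of 1.88. Of the factors acting at the Il6 promoter, 6 of 13 were higher and 1 lower in WT, with a median of 0.84, and 8 were higher and 2 lower in KO, with a median of 1.14. The negative regulators had 3 of 9 higher in WT and 5 of 9 in KO, with medians of 0.53 and 1.13, and none lower in either genotype. Among the RNA-binding regulators 4 of 8 were higher in each genotype, and among the JAK-STAT transducers 2 of 9 were higher and 1 lower in each. The difference between the genotypes in these counts was not tested, and the members were chosen with results of these data known.

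**Figure D4:**
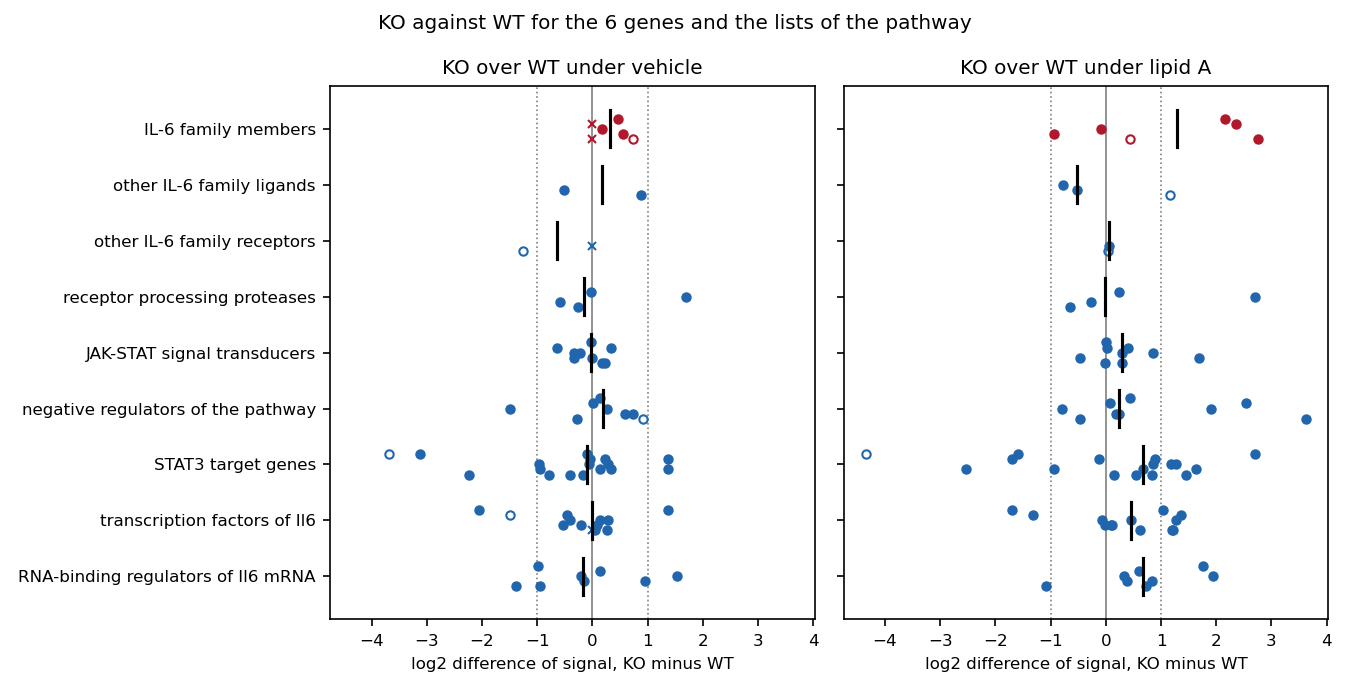
Log2 difference of signal, KO minus WT, under vehicle and under lipid A for the 6 genes (red) and for the 8 lists of the pathway (blue), with 1 point per detected gene, open points for bounds, crosses where no fold could be given, black bars at the median of each list and dotted lines at 2-fold. The bar of the 6 genes stands at 0.32 under vehicle and at 1.30 under lipid A, and that of the JAK-STAT transducers at -0.02 and 0.29.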

How the data were processed

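Gene expression was measured on 4 Affymetrix arrays, 1 for each genotype (WT, KO) and treatment (vehicle, lipid A). The authors deposited 1 table of probe set intensities on a linear scale. The sources used here do not name the software that made them, and the trimmed mean of 500.004 on every array (2% at each end) points to a global scaling. No further normalization was applied, and the present and increased calls of the study's methods are not used here.

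Of 45101 probe sets, 64 controls were left out. In the platform annotation supplied for this work, 34945 of the rest had 1 gene symbol, 932 several and 9160 none. Of the 18193 genes, 18031 matched a RefSeq gene number. The probe set of highest mean log2 signal stood for its gene. A signal under the array median was replaced by that median, and differences are on the log2 scale. A gene was called above 2-fold. No p-value was computed. The spread among probe sets of 1 gene, as the SD of their log2 differences, was 0.39 and 0.46 for the lipid A response of WT and KO, and 0.41 and 0.42 between genotypes with lipid A and with vehicle. This leaves out the spread between animals and hybridisations. The 3' to 5' ratio of actin was 1.79 to 2.19 and that of Gapdh 0.945 to 1.35.

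The members and the 16 gene lists were chosen with earlier results of these data known. Named from each list were up to 4 detected genes with the largest difference and a few fixed for their role, and for each member the 3 genes of nearest pattern. The comparison step was tested on simulated data. Alternatives were other scalings, floors, filters, probe set summaries and fold thresholds. Promoter sequences came from RefSeq on GRCm38.p6. The tools were Python 3.11.15, numpy 2.4.6, pandas 2.3.3 and matplotlib 3.10.9.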

Additional observations from a re-analysis of the deposited data

Results flagged for a closer look

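Of 73 genes examined (the members and the genes of the pathway lists), 10 had opposite signs of the KO over WT difference under vehicle and under lipid A, each larger than the SD between probe sets. The share of all genes with such opposite signs was not counted, so 10 of 73 cannot be set against a background. The lists were chosen with results of these data known. The difference between the treatments was not tested, since there was 1 array per condition. The values are the lipid A log2 difference minus the vehicle log2 difference.

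Il6ra was the only member of the family among them, with -1.49, from 0.55 under vehicle and -0.93 under lipid A on its brighter probe set. The second probe set of Il6ra had the opposite signs, -0.28 under vehicle and 0.36 under lipid A. Socs3, the feedback inhibitor of gp130, had the largest value, 4.02, from -1.48 and 2.53. Icam1, an adhesion molecule, had 3.67, Nfkbiz 3.09, Nfkb2 2.86, Zc3h12a 2.75, Il4ra 2.15, Zc3h12c, a relative of Regnase-1, 2.13, and Bcl3, a nuclear IκB protein, 1.62. On their brightest probe sets, all 8 genes from Socs3 to Bcl3 were lower in KO under vehicle and higher in KO under lipid A. Nfkb2 was below the median in KO vehicle, so its value is a bound, and its second probe set gave 0.09 and 1.02 under vehicle and lipid A, with no opposite sign. Nor had 1 of the 3 probe sets of Nfkbiz, at 0.26 and 0.69, and the dimmer probe set of Zc3h12a, at -1.30 and -0.01. The brightest probe sets of all 10 genes had opposite signs under median centring and under quantile normalization too, a check of the sign alone. Under median centring the vehicle difference of Il6ra was 0.18, smaller than the SD between probe sets of 0.42. Fos went the other way, with -3.06, from 1.36 under vehicle and -1.69 under lipid A.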

How the results depend on the processing

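With 1 array per condition, differences between animals and between hybridisations could not be separated from the groups, and signals near the array median carry little about a fold. No paired analysis was possible because each group has 1 array and no fit was made. Of 80 alternative counts of members, 72 were within 1.5 times the reported count and 8 were not. With lipid A in WT the number over 2-fold higher went from 2 to 1 under median centring and at over 3-fold, where Osm no longer passed, and with both arrays required at or above the median, where Il6 had no value, and the number lower went from 1 to 0 at over 3-fold. For KO over WT under lipid A the number lower went from 0 to 1 under quantile normalization and at over 1.5-fold, in both cases Il6ra, whose other probe set was higher in KO. For KO over WT under vehicle the number higher went from 0 to 1 with signals as measured and at over 1.5-fold, in both cases Il6. Of 198 alternative values of single genes, 175 moved by less than 1 SD between probe sets (0.60 on the log2 scale for response differences), 22 moved by more and 1 reversed. Part of the 175 could not move. A change of filter leaves each value as it was, and the probe set summaries leave Il6 and Osm, with 1 probe set each, unchanged. The reversed value was the KO minus WT response of Il6, 2.03 as reported and -2.87 with signals as measured, which follows from the WT vehicle signal below the array median. Between genotypes with lipid A, 3 members were over 2-fold higher in KO under all 10 alternatives run. Part of these alternatives could not lower the count. The 3 members were above the median on both arrays, so other filters and signals as measured left their values unchanged. The threshold of 1.5-fold is looser, and the probe set summaries could change only Lif, to 1.74. With lipid A over vehicle in KO the number was 3 under 8 alternatives, 4 with signals as measured and 2 with both arrays required at or above the median. Median centring moved the median of all genes by -0.34 between genotypes with vehicle, by -0.20 for lipid A in WT and by 0.15 for lipid A in KO, and Il6st then went from 0.18 to -0.19 between genotypes with vehicle.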
